A study of Mus musculus with 3 samples.

Results

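The interferon-stimulated genes Isg15, Ifit1, Ifit3, Irf7, Rsad2, Oasl2, Bst2, Ifi27l2a and Ifitm3, were followed in single cells of irradiated mouse lung to find which cells carried them 5 months after irradiation. They were taken by name, 9 of the 22954 genes in the tables, and all 9 were found. Their levels were read in every cell type and library.

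The study asked whether AsiDNA protects normal tissue from irradiation given at either dose rate; the libraries read here hold AsiDNA with the conventional rate only. Lungs came from 3 female wild-type C57BL6/J mice, 1 per group, each assigned 13 Gy to both sides of the chest and studied 5 months later. This is the nominal dose. For the chest the study lists ranges of given dose that overlap but differ between the conventional and FLASH modes, and none for these mice singly. The general age of mice in the study is 8 to 9 weeks, with no other given for this experiment. CONV received the dose at a conventional dose rate, and FLASH received it at an ultra-high dose rate. CONV AsiDNA received the conventional dose after AsiDNA, a short DNA decoy that mimics double-strand breaks and engages the cell's break signalling, injected into the abdomen at 100 mg/kg on each of 2 days and at 200 mg/kg on the day of irradiation. All 3 mice were irradiated, so the values below compare irradiated lungs with each other; libraries of unirradiated lungs were not analysed here. With 1 mouse per group there is no test between groups and no p-value. A difference between libraries cannot be told apart from a difference between mice, given doses, dissociations or library preparations. Intervals in the text are exact Clopper-Pearson 95% intervals of a share of cells and cover only the sampling of cells within 1 library.

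Interferons are secreted proteins that warn cells of virus or of misplaced nucleic acid. Type I interferons bind the receptor pair Ifnar1 and Ifnar2, whose kinases carry the signal to a factor, holding Stat2 and Irf9, that binds the interferon-stimulated response element in the promoters of many antiviral genes. DNA that leaks into the cytoplasm after irradiation can start the same pathway through the sensor cGAS and its adaptor STING, here listed as Tmem173, which is why these genes are read in irradiated tissue.

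The members fall into groups by role. Isg15 encodes a ubiquitin-like protein that is coupled to other proteins, Ifit1 and Ifit3 bind foreign RNA, Rsad2 encodes viperin, which makes a chain-terminating nucleotide, and Oasl2 belongs to the oligoadenylate synthetase family. Irf7 is the transcription factor that amplifies the production of type I interferon. These 6 are called the inducible members below. Bst2, or tetherin, holds budding virus at the cell surface, and Ifitm3 blocks the entry of virus from endosomes. Ifi27l2a encodes a small protein of the interferon alpha-inducible family.

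The promoters show the element that the pathway acts on. All 9 genes are protein coding and lie on 6 chromosomes of mm10: Isg15 at chr4:156199424-156200818, Oasl2 at chr5:114896936-114912234, Irf7 at chr7:141262706-141266481, Ifitm3 at chr7:141009586-141010770, Bst2 at chr8:71534255-71537456, Rsad2 at chr12:26442746-26456452, Ifi27l2a at chr12:103442167-103443680, Ifit3 at chr19:34583531-34588731 and Ifit1 at chr19:34640871-34650009. RefSeq promoters of GRCm38.p6, reaching from 250 bases before to 50 bases after each gene's start, matched 8 of the 9 members. The letters GAAANNGAAA, the core of the response element, read on either strand and with overlapping matches counted, were found in 6 of these 8 promoters and in 3.44% of all 32851 promoters of the same length. Irf7 and Oasl2 held no match in the window, which says only that these letters are not in it. The stretches of 5 members that carry the matches follow, to show where the factor could bind, with the matches in capitals, on the strand of the gene with 20 bases on either side. Matches on the other strand read as TTTC, a pair of letters and TTTC again, and matches that overlap run together as 1 stretch of capitals. Distances are counted from the start in RefSeq, which for Ifit1, Ifit3 and Bst2 is not the end of the gene given above.

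Isg15, chr4:156200855-156200916, minus strand, 62 bases, first match 78 bases before the start: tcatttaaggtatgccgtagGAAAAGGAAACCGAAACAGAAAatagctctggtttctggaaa
Ifit1, chr19:34640765-34640833, plus strand, 69 bases, first match 104 bases before the start: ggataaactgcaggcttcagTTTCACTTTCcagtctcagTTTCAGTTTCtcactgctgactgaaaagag
Ifit3, chr19:34583353-34583436, plus strand, 84 bases, first match 156 bases before the start: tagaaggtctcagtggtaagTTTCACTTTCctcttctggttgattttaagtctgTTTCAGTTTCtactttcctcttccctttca
Rsad2, chr12:26456543-26456592, minus strand, 50 bases, first match 120 bases before the start: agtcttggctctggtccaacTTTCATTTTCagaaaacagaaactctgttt
Bst2, chr8:71537567-71537622, minus strand, 56 bases, first match 130 bases before the start: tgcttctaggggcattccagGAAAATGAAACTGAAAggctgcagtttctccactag

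Isg15 held 3 overlapping matches, Ifit1, Ifit3 and Bst2 held 2 each, and Rsad2 held 1. Ifitm3 also held 2 matches, but the stretch reaches the transcript and is not printed.

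The 3 tables held 6372 CONV, 6983 CONV AsiDNA and 6267 FLASH cells, of which 19619 were kept. The deposited values turned back into whole numbers, called adjusted counts here, with totals of 23908890, 26417388 and 23383510 and a median per cell of 3450, 3678 and 3621. Between 9 and 17 barcodes were shared by each pair of libraries. Cells were gated by markers into classes, named as "-like" types; 5.21% of cells fitted none, and 20 classes held at least 20 cells in each library. Values were read on 2 scales: the share of cells with the gene above 0, and the adjusted CPM, the class's sum for the gene per 1000000 adjusted counts. Some genes that every cell uses were listed at 0 in whole classes (mt-Co1 in 13 of 60 sets of a class and a library), so a gene at 0 is described as listed at 0 and no more. Where 3 values follow one another with no library named, they stand for CONV, CONV AsiDNA and FLASH in that order.

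Most cells carried none of the inducible members. The share with all 6 at 0 was 84.6%, 82.5% and 83.6%. A cell with at least 3 of the 6 above 0 is called a responding cell. Responding cells numbered 147 of 6371 in CONV (2.31%, interval 1.95 to 2.71), 151 of 6981 in CONV AsiDNA (2.16%, 1.83 to 2.53) and 96 of 6267 in FLASH (1.53%, 1.24 to 1.87). The FLASH interval lay below that of CONV and met that of CONV AsiDNA narrowly. All 6 members together were above 0 in 16 CONV, 12 CONV AsiDNA and 5 FLASH cells. Given the same mix of the 20 classes, the shares were 2.59%, 2.12% and 1.56%.

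The responding cells carried a broad interferon programme that the rule did not use. Of 41 other type I interferon-stimulated genes in the tables, the median responding cell had 13, 12 and 11 above 0, while the median cell with none of the inducible members had 3, 4 and 4. Between the 10th and 90th percentile the counts ran from 6 to 23.4 in responding CONV cells and from 1 to 7 in the others, so the distributions overlapped at their edges. Of the 40 genes of that list above 0 in either set, 39, 40 and 38 were present in a larger share of responding cells, against 51.7%, 49.8% and 37.4% of all genes. Rtp4, a chaperone of membrane receptors, was above 0 in 58.5% of responding and 2.15% of other CONV cells. Usp18, which removes Isg15 from proteins and damps the receptor, was above 0 in 28.6% against 2.1%, and Cmpk2, the neighbour of Rsad2 on the chromosome and a nucleotide kinase, in 23.8% against 0.835%. Cells of different classes make up the 2 sets, and responding cells had somewhat more adjusted counts in CONV (median 3947 against 3439). How far this moved the pooled shares was not tested. Within a class the gap varied. In interstitial macrophage-like cells the medians were 19, 16.5 and 21 genes against 5 in each library. In neutrophil-like cells they were 7, 8 and 8.5 against 4 in each. Of 20 list genes above 0 in mesothelial-like cells of CONV AsiDNA, 13 had a larger share in the 6 responding cells, against 54.3% of all genes.

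**Figure D1:**
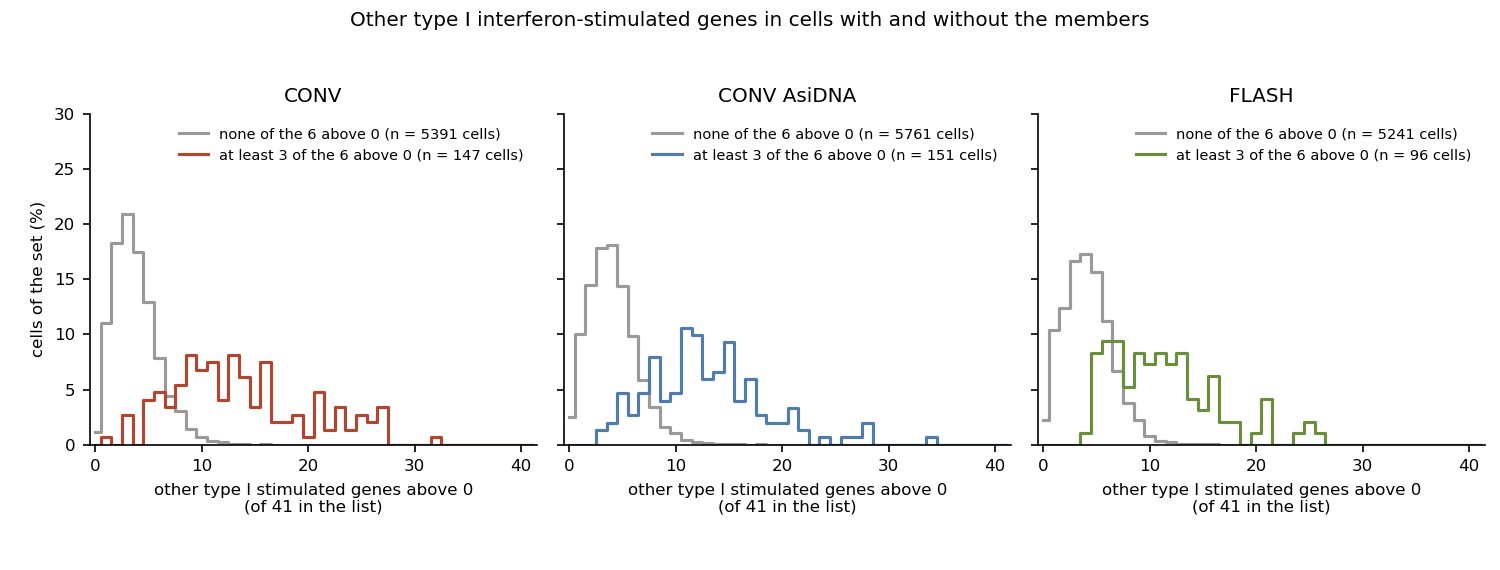
Number of other type I interferon-stimulated genes above 0 per cell (x axis, of 41) against the share of cells in percent (y axis), for cells with 3 or more inducible members and for cells with none, in each library. The responding cells centred on 11 to 13 genes and the others on 3 or 4.

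Other members were found more often in cells with Isg15 than in cells without it, over all classes pooled. Still, 680, 869 and 771 cells held exactly 1 inducible member, against 153, 200 and 159 with 2. Among the 350 CONV cells with Isg15, 23.7% also had Ifit3, against 1.3% of the cells without Isg15. The pair stood at 14.5% against 0.749% in CONV AsiDNA and at 9.9% against 0.733% in FLASH. Oasl2 accompanied Isg15 in 23.7%, 32.6% and 30.7% of cells, against 3.82%, 4.48% and 3.91% of the rest. Ifi27l2a was less tied to Isg15: it was in 31.4% of CONV cells with Isg15 and in 18.6% of those without.

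Each member had its own order of classes. Ranked by the median over libraries, Isg15 was most frequent in neutrophil-like cells (20.8%, 27.2% and 33.6%) and mesothelial-like cells (54.5%, 25% and 15.8%). Mast cell or basophil-like cells (22.3%, 21.8% and 3.7%) and endothelial-like cells (17.1%, 21.2% and 21.2%) followed. The intervals of neutrophil-like and endothelial-like cells overlapped in CONV and CONV AsiDNA and lay apart in FLASH. At the other end, Isg15 was in 0%, 0.188% and 0.606% of B cell-like cells. Their median adjusted counts per cell, 2831 to 3041, were close to the 2782 to 2938 of the neutrophil-like cells.

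Ifit1 and Ifit3 led in the lining cells of the lung. Ifit3 was in 19.5%, 14.9% and 15.3% of AT1-like cells, the thin cells of gas exchange, and in 45.5%, 6.82% and 5.26% of mesothelial-like cells. Ifit1 was in 9.73%, 17.9% and 10.5% of AT1-like cells. Yet AT1-like cells with 3 inducible members were few, 2 of 113, 0 of 67 and 2 of 124, and Rsad2 was listed at 0 there in CONV and CONV AsiDNA. AT2-like cells, which make surfactant, had Ifit1, Ifit3, Irf7 and Rsad2 listed at 0 in all 3 libraries.

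Irf7 was in 30.7% of CONV AsiDNA and 27.3% of FLASH patrolling monocyte-like cells, and in 5 of 44 in CONV (11.4%, 3.79 to 24.6). Ciliated-like cells had it in 18.8%, 14.1% and 6.67%. Plasmacytoid dendritic-like cells, the professional interferon producers, had Irf7 in 43.3% of 30 CONV AsiDNA and 55.6% of 54 FLASH cells, and Bst2, their surface marker, in 100% of both; CONV held only 8 of them.

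Rsad2 was in 11%, 14.6% and 14.5% of neutrophil-like cells. Oasl2 was in 86.4%, 70.5% and 71.1% of mesothelial-like cells, the sheet that covers the lung, and in 15.9%, 33% and 41.8% of neutrophil-like cells. Both classes thus carried Oasl2 in all 3 libraries, and NK-like, B cell-like and group 2 innate lymphoid-like cells had it listed at 0 in all 3.

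The other 3 members, Bst2, Ifi27l2a and Ifitm3, were frequent in whole classes. Ifitm3 was in 98.4%, 99.1% and 97.6% of fibroblast-like and in 95.5%, 96.9% and 99.4% of patrolling monocyte-like cells, and it was listed at 0 in all 3 libraries in 6 of the 20 classes, T, B and NK cells among them. Bst2 was in 66.4%, 82% and 83.4% of endothelial-like cells and listed at 0 in neutrophil-like cells. Ifi27l2a was in 81.8%, 81.8% and 78.9% of mesothelial-like and in 52.5%, 64.3% and 61.5% of interstitial macrophage-like cells.

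**Figure D2:**
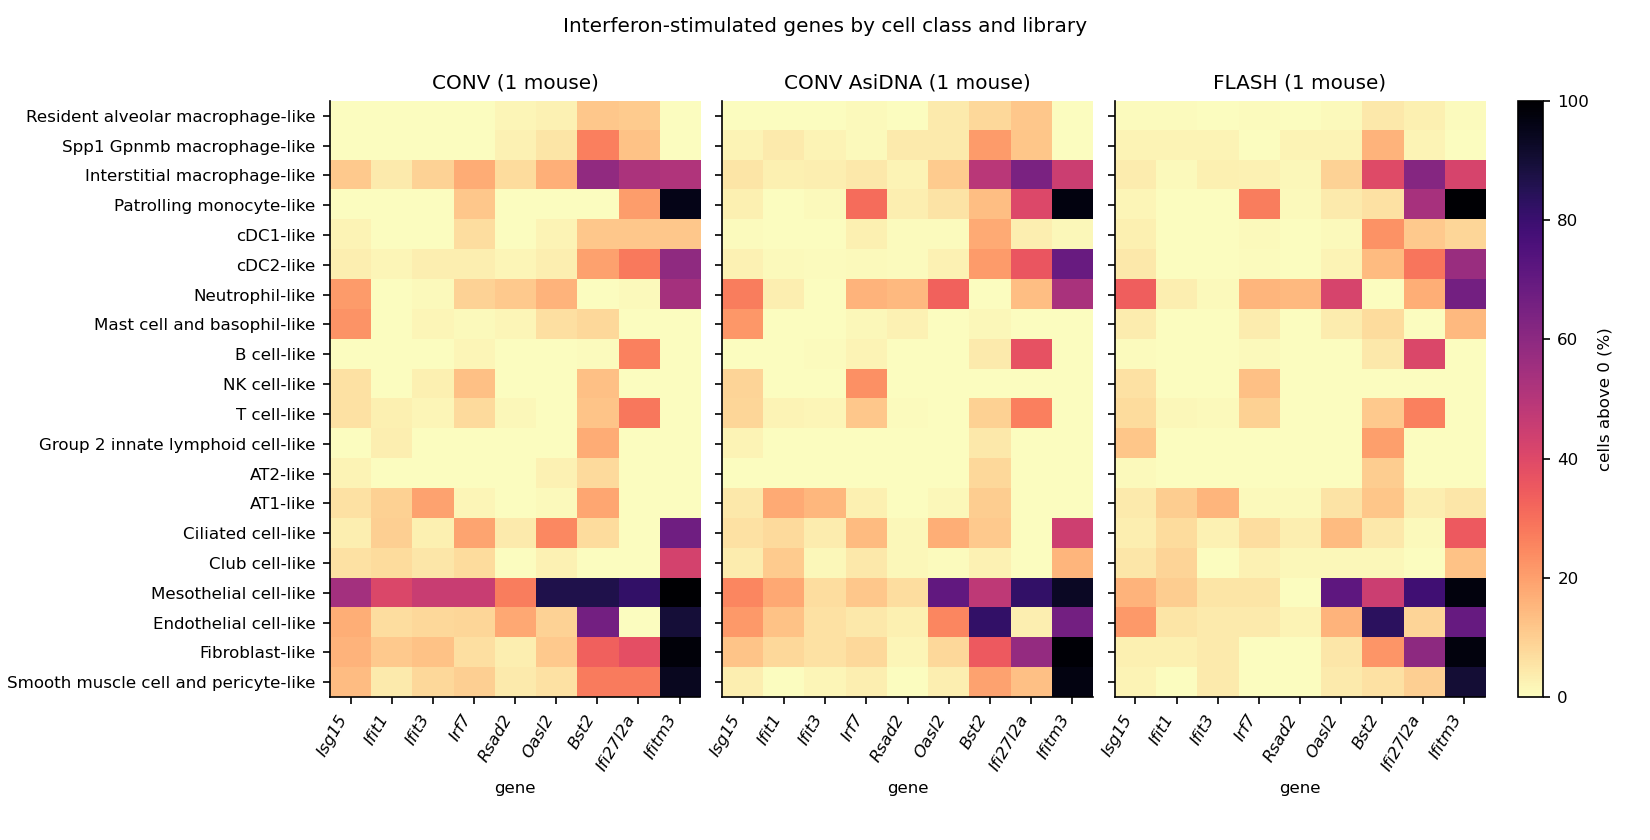
Share of cells with each of the 9 members above 0, in percent (colour), for the 20 classes in each library. Ifitm3 and Bst2 fill whole lineages, while Ifit1, Ifit3 and Rsad2 reach at most 19.5% outside the mesothelial-like class.

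Across 67 sets of a class and a library with at least 20 cells, the genes of 12646 whose level was most like that of Isg15 were Oasl2 (Pearson r 0.62), Rsad2 (0.61), Ifit1 (0.57), Ifit3 (0.56) and Rtp4 (0.56). Ifit1 and Ifit3 had r 0.86 with each other. Ifitm3 was closest to its neighbour in the family, Ifitm2 (0.84), followed by Eif4ebp1, Nhsl2 and Socs3. Irf7 was closest to Ly6c2 (0.61), a surface protein of classical monocytes and some lymphocytes, and to BC147527, Fdxr, Cdkn2d and Sap30. The points share libraries, and classes differ in depth, so these values describe the table only.

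Counted over the 20 classes, the members differed in both directions. A ratio was taken as log2 of adjusted CPM + 10, which understates the difference of low genes, and called when past 2-fold. Between CONV and FLASH, 38 of 146 values were called higher in CONV and 22 lower, against 6.68% and 6.07% of all features in those classes. Between CONV and CONV AsiDNA, 29 of 146 were higher and 21 lower, against 4.82% and 5.65%. Between CONV AsiDNA and FLASH, 28 of 145 were higher and 15 lower, against 4.31% and 3.14%. Many of these rest on few counts: among members with a sum of at least 20 over the pair, 32 of 92, 32 of 97 and 22 of 94 were called in either direction for the 3 pairs in that order, against 9.69%, 8.22% and 3.97% of features with such a sum. In each pair and direction the members were called more often than all features. Where a member was listed at 0 in 1 library of a pair, a call shows no more than that. With all cells of a library pooled, 0 of 9 members were past 2-fold in any pair, where few features were: 0.655% for CONV over CONV AsiDNA, 0.994% for CONV over FLASH and 0.128% for CONV AsiDNA over FLASH.

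The classes that held the responding cells differed between libraries. Interstitial macrophage-like cells gave 25.2%, 9.27% and 5.21% of the responding cells, while being 5.95%, 5.66% and 4.98% of all cells. Neutrophil-like cells gave 8.16%, 19.2% and 37.5%, while being 4.14%, 4.43% and 4.85% of all cells. Endothelial-like cells gave 17%, 21.9% and 15.6%.

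**Figure D3:**
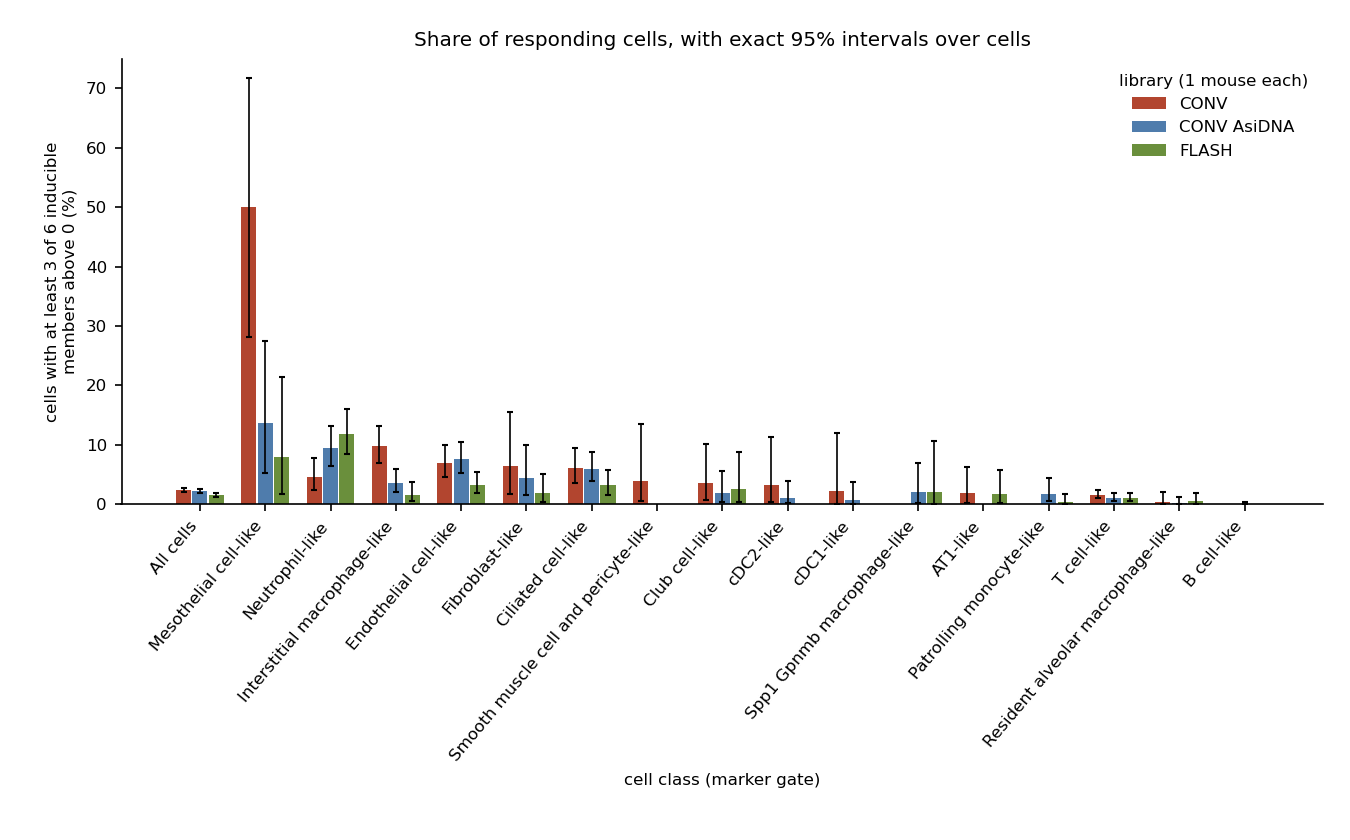
Share of cells with at least 3 of the 6 inducible members above 0, in percent (y axis), by class and library, with exact 95% intervals as bars (none drawn at 0). Compared among libraries within a class, the share was highest in CONV for interstitial macrophage-like cells (9.76%) and in FLASH for neutrophil-like cells (11.8%).

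Interstitial macrophages live in the tissue around vessels and airways. Responding cells were 37 of 379 of this class in CONV (9.76%, 6.97 to 13.2), 14 of 395 in CONV AsiDNA (3.54%, 1.95 to 5.88) and 5 of 312 in FLASH (1.6%, 0.522 to 3.7). The CONV interval lay above both of the others, which overlapped. Median adjusted counts per cell were 3903, 3930 and 3878. The shares without cells that also carried markers of a second class were 8.83%, 3.51% and 1.42%. With every cell thinned to 1000 adjusted counts, responding cells were 9 (2.37%, 1.09 to 4.46), 3 (0.759%, 0.157 to 2.2) and 2 (0.641%, 0.0777 to 2.3), so CONV stayed highest but its interval overlapped both others.

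Irf7 had the largest log2 ratio between CONV and FLASH among the members in this class. It was above 0 in 66 CONV cells (17.4%, 13.7 to 21.6), 18 CONV AsiDNA cells (4.56%, 2.72 to 7.11) and 8 FLASH cells (2.56%, 1.11 to 4.99), with 139, 26.3 and 10.6 adjusted CPM. Without the 1% of cells with the highest value in each library these levels were 110, 11.4 and 3.29. All cells kept, its log2 ratio was 2.86 against FLASH and 2.04 against CONV AsiDNA. Isg15 was above 0 in 11.3%, 5.32% and 3.85% and stood at 68.2, 65.8 and 18.7 adjusted CPM, so CONV and CONV AsiDNA were alike in level (log2 ratio 0.04) though not in the share of cells. That level rests on a few cells: without the 1% of cells with most Isg15 it was 40.8, 15.2 and 6.58.

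Ifit3 was above 0 in 9.23%, 3.29% and 2.88% of the class, with a log2 ratio of 1.11 for CONV over FLASH. Rsad2 was in 7.12%, 2.28% and 1.28%, at 74.8, 94.6 and 7.31 adjusted CPM. Without the highest 1% of cells it stood at 24.8 in CONV and 3.8 in CONV AsiDNA. Its order in level differs from its order in share because 1 CONV AsiDNA cell held 58.3% of that library's sum. Ifit1 was in 3.96%, 3.04% and 0.962% and was called lower in CONV than in CONV AsiDNA (log2 ratio -1.02), where 1 cell held 47% of the sum. Oasl2 was in 16.6%, 10.9% and 9.29%.

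Bst2 was in 58.8%, 49.1% and 39.7% of the class (log2 ratio 0.99 for CONV over FLASH), and Ifi27l2a went the other way, in 52.5%, 64.3% and 61.5%. Ifitm3 was in 51.5%, 44.6% and 42%.

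For CONV over FLASH, 4 of 9 members (Irf7, Rsad2, Isg15 and Ifit3) were past 2-fold higher and 0 lower, against 2.36% of all features called higher, and the median log2 ratio of the members was 0.99 against 0.08. For CONV over CONV AsiDNA 1 of 9 was higher (Irf7), against 1.39%, and 1 lower (Ifit1), against 0.628%. For CONV AsiDNA over FLASH 3 of 9 were higher (Isg15, Ifit1 and Rsad2), against 0.82%. In CONV AsiDNA 1 cell held 29.5% of the Isg15 sum, 1 held 47% of the Ifit1 sum and 1 held 58.3% of the Rsad2 sum. By the share of cells, Isg15, Ifit3, Irf7, Rsad2 and Bst2 had CONV intervals entirely above those of FLASH, 5 of 9 against 5.87% of all features. The first 4 of these also lay above CONV AsiDNA, 4 of 9 against 4.58%, and Ifi27l2a lay wholly below it (47.3 to 57.6 against 59.4 to 69), 1 of 9 against 3.26%. The comparisons with CONV share its cells and are not separate evidence.

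Other genes of the pathway were read in the same class. Of 38 other type I interferon-stimulated genes, 12 were past 2-fold higher in CONV than in FLASH and 0 lower, against 2.36% of all features called higher (median log2 ratio 0.69 against 0.08). Of 39 against CONV AsiDNA, 3 were higher and 0 lower, against 1.39% (median 0.28 against 0.05). Rtp4 stood at 70.1, 45.7 and 13.8 adjusted CPM. Ifit2, the partner of Ifit1 and Ifit3, stood at 39.7, 27.6 and 6.49, and Lgals3bp, a secreted glycoprotein, at 341, 174 and 137. Stat2 stood at 41, 16.9 and 9.74, whereas Irf9 stood at 41, 52 and 52.8. Stat2 was the 1 of 6 signalling genes past 2-fold, where 3.18% of all features were, in either direction, for CONV over FLASH. Ifnar1 was in 45.9%, 42.5% and 43.3% of these cells and Ifnar2 in 64.6%, 62.5% and 67%. Of 6 receptor genes 0 were past 2-fold, which with a share of 3.18% over all features says little. Of 17 interferon gamma-dominant genes 2 were higher and 0 lower, against 2.36% of all features called higher. Of 13 genes of the dissociation response 0 were called in either direction, against 3.18% of all features.

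The CONV responders were not spread evenly over the class. In a joint clustering, 1 cluster was led by Cd209f, Lyve1, Marco, Prg4 and Folr2, among them Lyve1 and Folr2, known from resident macrophages beside vessels, and another by Mucl1, Tnip3, Mmp12, Ccr2 and Il1b, among them the monocyte receptor Ccr2. Responding cells were 23 of 86 of the Lyve1 cluster in CONV (26.7%, 17.8 to 37.4), 4 of 121 in CONV AsiDNA (3.31%, 0.908 to 8.25) and 1 of 111 in FLASH (0.901%, 0.0228 to 4.92). In the Ccr2 cluster they were 14 of 275 (5.09%), 10 of 266 (3.76%) and 3 of 196 (1.53%). The library gap was thus wide in the first and narrow, with overlapping intervals, in the second.

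Within the Lyve1 cluster Irf7 was in 44.2%, 6.61% and 0.901% of cells. Isg15 was in 24.4%, 3.31% and 3.6%, Ifit3 in 24.4%, 2.48% and 0.901%, and Rsad2 in 18.6%, 2.48% and 0.901%. Bst2 was in 83.7%, 66.9% and 55.9%. The cluster was a smaller part of the class in CONV (22.7%) than in CONV AsiDNA (30.6%) and FLASH (35.6%). The clustering was made on the expression of these same cells, so these shares are a description.

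**Figure D4:**
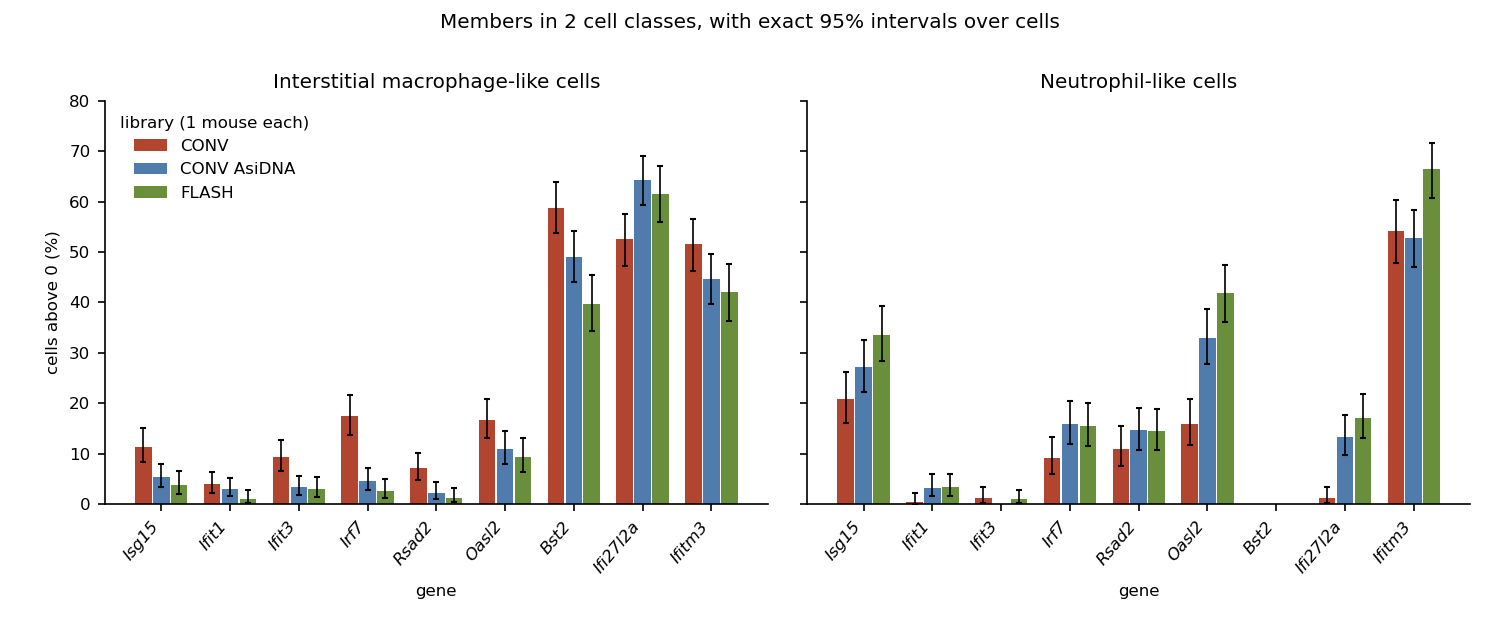
Share of cells with each member above 0, in percent (y axis), in interstitial macrophage-like and neutrophil-like cells of each library, with exact 95% intervals as bars (none drawn at 0). Irf7 was highest in CONV among the macrophage-like cells (17.4%), and Oasl2 was lowest in CONV among the neutrophil-like cells (15.9%).

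Neutrophils, short-lived granulocytes recruited from the blood, gave the opposite order. Responding cells were 12 of 264 in CONV (4.55%, 2.37 to 7.81), 29 of 309 in CONV AsiDNA (9.39%, 6.38 to 13.2) and 36 of 304 in FLASH (11.8%, 8.43 to 16). The CONV interval lay below that of FLASH and overlapped that of CONV AsiDNA. Median adjusted counts per cell were 2782, 2907 and 2938. The shares without cells that also carried markers of a second class were 4.82%, 10.1% and 12.5%. With every cell thinned to 1000 adjusted counts, responding cells were 5 (1.89%, 0.618 to 4.36), 3 (0.971%) and 15 (4.93%, 2.79 to 8.01), so CONV no longer lay below CONV AsiDNA and its interval met that of FLASH.

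Oasl2, Ifi27l2a and Isg15 were past 2-fold lower in CONV than in FLASH. Oasl2 was above 0 in 42 CONV cells (15.9%, 11.7 to 20.9), 102 CONV AsiDNA cells (33%, 27.8 to 38.6) and 127 FLASH cells (41.8%, 36.2 to 47.5), at 80.4, 233 and 344 adjusted CPM. Its log2 ratio was -1.97 for CONV over FLASH and -1.43 for CONV over CONV AsiDNA, with CONV apart from both. Isg15 was above 0 in 20.8%, 27.2% and 33.6%, at 143, 194 and 300 adjusted CPM (log2 ratio -1.01 for CONV over FLASH), with the CONV interval overlapping that of CONV AsiDNA.

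Ifi27l2a was above 0 in 3 CONV cells (1.14%, 0.235 to 3.28), 41 CONV AsiDNA cells (13.3%) and 52 FLASH cells (17.1%), with a log2 ratio of -1.74 for CONV over FLASH and -1.34 for CONV over CONV AsiDNA. Irf7 was in 9.09%, 15.9% and 15.5%, and Rsad2 in 11%, 14.6% and 14.5%, with overlapping intervals for both. Ifit1 and Ifit3 were rare, in 1, 10 and 10 and in 3, 0 and 3 cells. In the adjusted counts of this class Isg15, Oasl2 and Rsad2 were thus above 0 largely without Ifit1 and Ifit3, which describes the listing and no more. Ifitm3 was in 54.2%, 52.8% and 66.4%.

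Of 8 members with a value, 3 were past 2-fold lower in CONV than in FLASH and 0 higher, against 4.01% of all features called lower (median log2 ratio -0.63 against 0.03). Against CONV AsiDNA, 2 were lower, against 5.8%, and Ifit3 was called higher on its 3 cells against 0, 1 of 8 against 2.98% of all features (median -0.46 against -0.05). By the share of cells, Isg15, Oasl2, Ifi27l2a and Ifitm3 lay wholly below FLASH, 4 against 5.2% of all features, and Oasl2 and Ifi27l2a below CONV AsiDNA, 2 against 6.22%.

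Of 33 other type I genes, 6 were past 2-fold lower in CONV than in FLASH and 0 higher, against 4.01% of all features called lower (median -0.40 against 0.03). Of 32 against CONV AsiDNA, 5 were lower and 0 higher, against 5.8% (median -0.26 against -0.05). Rtp4 stood at 20.1, 135 and 111 adjusted CPM, and Samd9l, which restrains growth and virus, at 56.3, 125 and 168. Irf9 stood at 13.4, 46.6 and 56.1, and Zbp1, a sensor of left-handed nucleic acid, was listed at 0 in CONV and stood at 9.54 and 30.2 in the others. Ifnar1 was in 40.5%, 25.9% and 27.6% of the cells, highest in CONV. Of 13 dissociation-response genes, 2 were past 2-fold higher in CONV than in FLASH and 0 lower, against 5.94% of all features called higher, with a median of 0.55; their part in the result was not tested.

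Responding cells were also unevenly spread over the neutrophil-like clusters. A cluster led by Camp, Ngp and Ltf, genes of the granules made before release from the marrow, held 13 CONV, 38 CONV AsiDNA and 40 FLASH cells, of which 0, 1 and 1 were responding. In the remaining cluster, led by Wfdc17, Fgl2, Ppp1r15a, Ifitm1 and Dusp2, responding cells were 12 of 251 (4.78%), 28 of 269 (10.4%) and 35 of 264 (13.3%), in the same order as in the whole class.

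**Figure D5:**
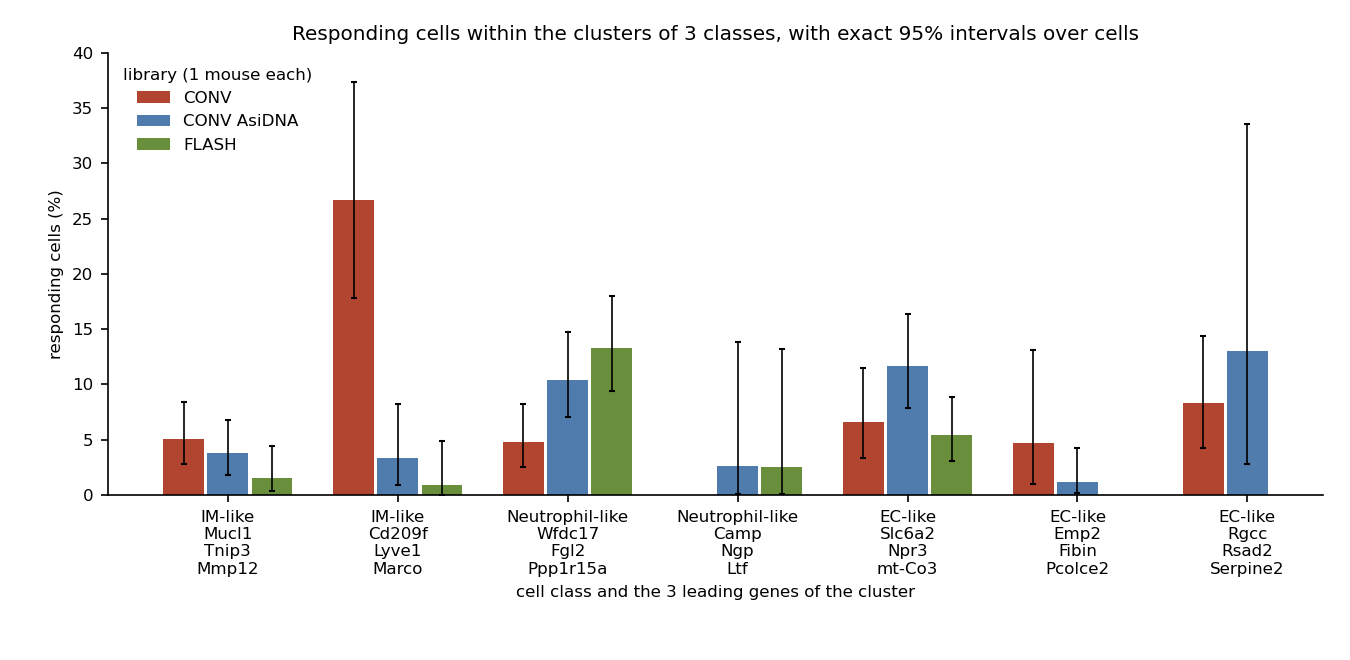
Share of responding cells, in percent (y axis), within clusters of interstitial macrophage-like, neutrophil-like and endothelial-like cells in each library, with exact 95% intervals as bars (none drawn at 0; sets under 10 cells are left out, which is the case for 1 FLASH cell). The CONV cells of the Lyve1-led macrophage-like cluster stand highest, at 26.7%.

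Endothelial-like cells line the vessels and carried the members in every library, but member by member the order of libraries differed. Responding cells were 25 of 363 in CONV (6.89%, 4.51 to 10), 33 of 434 in CONV AsiDNA (7.6%, 5.29 to 10.5) and 15 of 457 in FLASH (3.28%, 1.85 to 5.36), and all intervals overlapped. Oasl2 was in 9.09%, 25.1% and 15.8%, Bst2 in 66.4%, 82% and 83.4%, and Ifi27l2a in 0.275%, 3.23% and 8.97%, all lowest in CONV. Ifitm3 was in 89.5%, 66.4% and 69.4% and Rsad2 in 18.2%, 3% and 2.19%, both highest in CONV. By the share of cells, 2 members lay wholly above FLASH in CONV, against 7.2% of all features, and 3 wholly below, against 7.82%.

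The Rsad2 excess sat in 1 cluster. That cluster, led by Rgcc, Rsad2, Serpine2, Fabp4 and Fam167b, held 132 CONV, 23 CONV AsiDNA and 1 FLASH cells, and Rsad2 was above 0 in 46.2% of its CONV and 52.2% of its CONV AsiDNA cells. Of the other members, Irf7 was in 14.7% of its cells against 4.19% of the other endothelial-like cells and Ifitm3 in 95.5% against 71.1%. Isg15 was in 18.6% against 20.2%, Oasl2 in 9.62% against 18.1% and Bst2 in 59.6% against 80.6%. Without the cluster Rsad2 was in 2.16%, 0.243% and 2.19% of endothelial-like cells, and its log2 ratio turned from 3.54 to -0.21 for CONV over FLASH and from 2.38 to -0.62 for CONV over CONV AsiDNA. Oasl2 (10.4%, 25.1% and 15.8%) and Bst2 (71.4%, 82.5% and 83.6%) kept their order without it. The cluster was made on the expression of these cells and Rsad2 is among its leading genes, so leaving it out also removes cells that were grouped partly by Rsad2. Of 13 dissociation-response genes, 7 were past 2-fold higher in endothelial-like cells of CONV than of FLASH and 0 lower, against 3.31% of all features called higher (median log2 ratio 1.17); their part in the members' values was not tested.

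Capillary types differed in Ifitm3. Among aerocyte-like cells, the wide capillary cells of gas exchange, numbering 68, 171 and 185, it was in 61.8%, 23.4% and 27.6%. Among general capillary-like cells it was in 95.8%, 94% and 97.4%. Large vessel-like cells had it in 97%, 96.2% and 98.8%, so the libraries differed in the aerocyte-like cells, which were also fewer in CONV. Oasl2 was in 6.88%, 33.9% and 21.6% of general capillary-like cells, where CONV was lowest. It was in 17.6%, 15.8% and 13.5% of aerocyte-like and in 8.08%, 24.4% and 7.41% of large vessel-like cells, where CONV was not.

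Mesothelial-like cells had the highest responding shares of the 20 classes in CONV and CONV AsiDNA, but few cells stand behind them. Responding cells were 11 of 22 in CONV (50%, 28.2 to 71.8), 6 of 44 in CONV AsiDNA (13.6%, 5.17 to 27.4) and 3 of 38 in FLASH (7.89%, 1.66 to 21.4). Of these cells 17 of 22, 1 of 44 and 6 of 38 also carried the markers of a second class, nearly all of them fibroblast markers, and 7 of the 11 CONV responders did; without such cells 4 of 5, 5 of 43 and 2 of 32 were responding. Irf7 was in 45.5%, 11.4% and 5.26% and Bst2 in 86.4%, 47.7% and 44.7%. Past 2-fold higher in CONV were 7 of 9 members over FLASH, against 12.7% of all features, and 6 of 9 over CONV AsiDNA, against 12.2%. Isg15, Ifit3, Irf7, Rsad2 and Bst2 had intervals wholly above FLASH, 5 of 9 against 1.39%. Rsad2 was listed at 0 in the 38 FLASH cells, so its interval and its call over FLASH rest on that. These counts include the cells with markers of a second class, which were unevenly spread over the libraries.

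Fibroblast-like cells had Isg15, Ifit1, Ifit3 and Oasl2 lower in FLASH than in either other library, and Irf7 and Rsad2 listed at 0 there. The class held 63, 114 and 168 cells. Isg15 was in 15.9%, 12.3% and 2.98% of them, and responding cells numbered 4, 5 and 3. Past 2-fold higher were 6 of 9 members in CONV over FLASH, against 8.9%, and 7 of 9 in CONV AsiDNA over FLASH, against 2.98%. Both counts hold Irf7 and Rsad2, whose calls rest on the listed 0 in FLASH. Ifi27l2a went the other way, in 38.1% (26.1 to 51.2), 57.9% and 59.5% (51.7 to 67) of the class, and was the 1 member with a CONV interval wholly below that of FLASH, against 1.31% of all features. Isg15 had a CONV interval (7.88 to 27.3) wholly above that of FLASH (0.973 to 6.81), against 3.56%. Single cells weigh here: 1 cell held 77.5% of the Rsad2 sum of CONV AsiDNA and 47.5% of its Isg15 sum.

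Smooth muscle and pericyte-like cells had 7 of 9 members past 2-fold higher in CONV than in FLASH, against 14.9% of all features. Some of these rest on single cells: of 51 CONV cells, 2 were responding, and 1 cell held 92.3% of the Ifit1 sum and 78.3% of the Ifit3 sum. Others were spread over more cells, with Bst2 in 14, Isg15 in 7 and Irf7 in 5 CONV cells against 3, 1 and 0 of 51 in FLASH. Ifit1, Irf7 and Rsad2 were listed at 0 in FLASH, so their calls rest on that. By the share of cells, 0 of 9 members had a CONV interval apart from that of FLASH, where 1.25% of all features lay above and 0.463% below.

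Ciliated-like cells, which clear the airways, had responding shares of 6.04%, 5.97% and 3.17% with overlapping intervals. Irf7 was in 18.8%, 14.1% and 6.67%, Oasl2 in 24.8%, 16.9% and 14.3%, and Ifitm3 in 66.8%, 44.2% and 34.9%. These 3 members lay wholly above FLASH in CONV, 3 of 9 against 9.83% of all features. Of the class, 3.36%, 5.25% and 22.5% sat in a cluster led by Scgb3a2 and Scgb1a1, secretory genes of club cells, and its 71 FLASH cells were shallow (median 2235) and had Irf7 in 1.41%, Oasl2 in 7.04% and Ifitm3 in 19.7%. In the remaining ciliated-like cluster Irf7 was in 18.4% of CONV cells (14.1 to 23.4) and 8.2% of FLASH cells (5.08 to 12.4), and Ifitm3 in 66.3% (60.5 to 71.8) and 39.3% (33.2 to 45.8). Oasl2 was in 25% (20.1 to 30.4) and 16.4% (12 to 21.6), where the intervals overlapped. Isg15, in 3.36%, 5.97% and 3.17%, did not follow them.

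Patrolling monocyte-like cells, which crawl along the vessel wall, had Irf7 and Ifi27l2a lower in CONV, on 44 cells, and other members listed at 0 there. Of 8 members with a value, 6 were past 2-fold lower than in CONV AsiDNA, against 8.96% of all features, and 4 lower than in FLASH, against 8.08%. Those 4 were Irf7, Oasl2, Bst2 and Ifi27l2a, while Isg15, Ifit3, Rsad2 and Ifitm3 were not past 2-fold against FLASH. Of the members called in either comparison, only Irf7 and Ifi27l2a were above 0 in CONV. The other calls rest on a listed 0. Ifi27l2a was in 20.5%, 40.4% and 53.2%, and was the 1 member with a CONV interval below that of FLASH, against 2.82% of all features. Irf7 lay wholly below CONV AsiDNA (3.79 to 24.6 against 24.8 to 37.1), as did Bst2 on its listed 0, against 2.27% of all features. Bst2 was listed at 0 in CONV and in 13.6% and 6.01% of the others. Responding cells numbered 0, 4 and 1, where the 0 was fixed, since only Irf7 of the inducible members was above 0 in CONV.

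T cell-like cells were many but seldom responding, with 22 of 1386 in CONV (1.59%, 0.997 to 2.39), 10 of 977 in CONV AsiDNA (1.02%, 0.492 to 1.87) and 13 of 1196 in FLASH (1.09%, 0.58 to 1.85). Of the 8, 8 and 7 members with a value in these cells 0 were past 2-fold, against 1.35%, 1.49% and 0.71% of all features for CONV over CONV AsiDNA, CONV over FLASH and CONV AsiDNA over FLASH. By the share of cells, Rsad2 in CONV (0.827 to 2.13) lay above FLASH (0.0203 to 0.603), against 8.44% of all features. Irf7 in CONV (6.37 to 9.25) lay below CONV AsiDNA (9.72 to 13.8), against 13.1%. Resident alveolar macrophage-like cells, which fill the air spaces, had 1, 1 and 2 responding cells. The class was not alike across libraries. In CONV 58.7% of it sat in the cluster that held 98.3% of the CONV cells with Spp1 and Gpnmb. In CONV AsiDNA and FLASH 92.9% and 95% sat in another cluster. Markers of a second class were carried by 235 of 264, 355 of 491 and 327 of 402 resident cells. The macrophage-like cells with Spp1 and Gpnmb, 587 in CONV against 101 and 50, had 0, 2 and 1 responding cells. Isg15, Ifit1, Ifit3 and Irf7 were listed at 0 in CONV there, and Irf7 in FLASH. No CONV cell could thus reach 3 inducible members, so its 0 limits no share. Markers of a second class were carried by 553 of 587, 93 of 101 and 48 of 50 of them. AT2-like, NK-like and mast cell or basophil-like cells had none in any library. In AT2-like cells Ifit1, Ifit3, Irf7 and Rsad2 were listed at 0 throughout, so 3 members could not be reached. NK-like cells had Ifit1, Rsad2 and Oasl2 listed at 0 throughout, and Ifit3 in CONV AsiDNA and FLASH, where the same held. For those sets the absence follows from the listing.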

How the data were processed

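The authors dissociated lungs with dispase and elastase, made droplet libraries that read transcript ends, and, per the labels, aligned them with Cell Ranger 6.0.0 to mm10. The values the authors deposited per cell are on a natural log scale, ln(1 + a whole number) within 1e-06; no source used here says how the counts were adjusted. They were turned back with exp − 1. Cells with fewer than 200 genes above 0 (3 cells) were left out. Each cell took the class with the highest mean of capped scaled markers if that was at least 0.15, at least 3 markers were above 0 and the next class was 0.05 lower. No doublet caller was run, and cells with a second class's markers were counted. No background share of stray transcripts is given, so a gene above 0 describes the count in a droplet and no more. Classes were checked by joint clustering (Leiden, resolution 1, 2000 variable genes, 30 components, 15 neighbours), which gave 96.6% of gated cells the same class. All genes, not only the members, entered the ratios. The 12 value columns of 4 further tables belong to no sample here and were not used; they hold the authors' own results. The members, lists and tests were chosen with earlier results of these data known. Named genes were the 9 members, list genes past 2-fold in the class discussed or highest in level, and for Isg15, Irf7 and Ifitm3 the 5 genes most like them among genes above 0 in at least 1% of cells; Usp18, Cmpk2, Irf9, Ifnar1 and Ifnar2 were named besides, after their values were seen. Alternatives were other gates and filters, a prior of 1, median-ratio scaling, a mean of each cell's scaled value, leaving out the 1% of cells with the highest value, thinning to 1000 adjusted counts per cell and other definitions of a responding cell; those without second-class cells and without 1 endothelial cluster were added after the data were seen. Some items the rule would name are not reported here. The ratio script was tested on simulated data. Python 3.11.15, scanpy 1.11.5, leidenalg 0.10.2, scipy 1.17.1 and pandas 2.3.3 were used.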

Additional observations from a re-analysis of the deposited data

Results flagged for a closer look

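Before thinning, the share of responding cells in CONV was the highest of the 3 libraries in 1 cell class and the lowest in another. The share of responding cells among interstitial macrophage-like cells was higher in CONV than in CONV AsiDNA by 6.22 percentage points and than in FLASH by 8.16 points. Among neutrophil-like cells the CONV share minus that of CONV AsiDNA was -4.84 points and minus that of FLASH was -7.3 points. With cells thinned to 1000 adjusted counts the neutrophil-like shares were 1.89% in CONV, on 5 cells, and 0.971% in CONV AsiDNA, on 3, so the first of these did not keep its direction. The thinned interstitial macrophage-like shares were 2.37%, 0.759% and 0.641% in the order CONV, CONV AsiDNA and FLASH, on 9, 3 and 2 cells, with overlapping intervals. The difference between the classes was not tested, since each group holds 1 mouse.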

How the results depend on the processing

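No paired analysis was possible because each group holds 1 library, and for the same reason no library could be left out. Values below are CONV, CONV AsiDNA and FLASH. In all cells the responding share was 4.71, 5.03 and 4.07% at 2 or more members, 1.21, 0.974 and 0.67% at 4 or more, 1.63, 1.52 and 1.07% without Irf7, and 0.612, 0.501 and 0.479% thinned to 1000. In neutrophil-like cells these settings gave 11.4, 23.3 and 30.6%, 1.89, 2.59 and 4.93%, 2.27, 5.18 and 7.89%, and 1.89, 0.971 and 4.93%. In interstitial macrophage-like cells CONV stood at 15.3%, 5.8%, 6.86% and 2.37%, and CONV AsiDNA at 0.759% when thinned. CONV exceeded both others in interstitial macrophage-like cells in 8 of 8 settings and was below FLASH in neutrophil-like cells in 8 of 8. It was below CONV AsiDNA there in 7 of 8, the exception being thinning, and above CONV AsiDNA over all cells in 8 of 9, the exception being 2 or more members. The thinned order in neutrophil-like cells rests on 5 against 3 cells. Thinning also turned all 3 pairs in endothelial-like cells (0.826, 0.691 and 0.875%) and CONV AsiDNA over FLASH in mesothelial-like cells; CONV over CONV AsiDNA kept its direction in 4 of 8 settings in ciliated-like and in 6 of 8 in fibroblast-like cells. Members past 2-fold over the 20 classes (50, 60 and 43 for CONV over CONV AsiDNA, CONV over FLASH and CONV AsiDNA over FLASH) numbered 32, 32 and 22 with a sum of at least 20, and 32 and 25 for the first and last pair without responding cells. A prior of 1, which widens the ratios of all low genes, gave 69 for the last. No share of all features is given for that prior or without responding cells, so these counts are not read further. In endothelial-like cells without the mostly CONV cluster the log2 ratio of Rsad2 was -0.62 over CONV AsiDNA and -0.21 over FLASH. Without responding cells, ratios in mesothelial-like cells of CONV over CONV AsiDNA turned to -1.18 for Isg15 and -2.61 for Ifit3, and of CONV over FLASH to -0.71 for Ifit3; in fibroblast-like cells Oasl2 turned to -0.12 for CONV AsiDNA over FLASH. With at least 500 genes per cell, Ifit3 in mesothelial-like cells turned to -0.03 for CONV AsiDNA over FLASH. Without the 1% of cells with the highest value, 11 of 44 levels fell by over 1.5 times: in interstitial macrophage-like cells Isg15 in all 3 libraries, Irf7 in CONV AsiDNA and FLASH (11.4 and 3.29) and Rsad2 in CONV and CONV AsiDNA, in neutrophil-like cells Irf7 in CONV (31.1) and Rsad2 in FLASH (115), and in endothelial-like cells Rsad2 in CONV AsiDNA and FLASH (9.84 and 2.99). The turned ratios rest on few cells, and the cause was not tested. Over all settings 7 log2 ratios turned, 34 weakened, 34 moved and 335 stayed the same. Of the weakened, 21 were without responding cells, 4 without second-class cells, 4 with cell types from joint clusters and 2 with a stricter gate. Depth limits the shares, since a cell with few adjusted counts can miss a member it carries.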

Other observations

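Interferon ligands were nearly absent from the tables. Of 20 ligand genes listed, 18 were not in them. In the order CONV, CONV AsiDNA and FLASH, Ifng was above 0 in 20.6% (11.7 to 32.1), 36.9% (31.2 to 42.8) and 36.3% (29.8 to 43.2) of NK-like cells and in 7.94%, 9.83% and 8.95% of T cell-like cells. Cxcl10, a chemokine induced by either kind of interferon, was above 0 in 1.74% (1.44 to 2.09), 1.17% (0.935 to 1.46) and 0.718% (0.524 to 0.96) of all cells. In T cell-like cells Cxcl10 was in 4.33%, 2.35% and 1.51%, where the intervals of CONV (3.32 to 5.54) and FLASH (0.894 to 2.37) lay apart. The sensor Cgas was above 0 in 1.71%, 3.02% and 2.27% of all cells and its adaptor Tmem173 in 11.2%, 13.3% and 12.4%.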
